A study of Mus musculus with 12 samples.

Results

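Doranidazole was compared with phosphate-buffered saline (PBS) in normoxia in cultured GSC-H cells, a mouse glioma stem cell line. The comparison held 6 arrays, 3 with doranidazole and 3 with PBS, of the 12 arrays in the series, and took in all 22206 probe sets, of which 19572 carried a gene symbol (19505 genes). It addresses which transcripts respond to the drug when oxygen is plentiful. All groups were of the same cell line, which lacks Ink4a/Arf, carries a retroviral H-RasV12 cDNA under hygromycin selection, and was isolated again from late-stage intracranial tumors in mice. Cells were kept without serum in a neural stem cell medium with EGF and bFGF. The drug group received 3 mM doranidazole for 24 h and the control group PBS for 24 h, both at 21% O2. The other 6 arrays, from the same treatments at 1% O2, entered one of the fits for the spread between arrays.

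Doranidazole is a 2-nitroimidazole, a compound with a nitro group on an imidazole ring that was developed to sensitize hypoxic cells to radiation. Cellular flavoenzymes pass electrons to the nitro group. In oxygenated cells the resulting radical can hand its electron to oxygen, which yields superoxide and returns the drug, whereas in hypoxic cells reduction proceeds to products that bind macromolecules. Oxidants and electrophiles stabilize NRF2, a transcription factor otherwise held and degraded through KEAP1, and NRF2 drives genes of glutathione, thioredoxin and quinone metabolism. DNA damage stabilizes p53, which induces the cyclin-dependent kinase inhibitor p21 (Cdkn1a) and its own inhibitor Mdm2. With p21 present, the RB family and the DREAM complex repress the genes of DNA replication and mitosis.

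The arrays measured log2 signals, and array medians lay between 4.65 and 4.73 over the normoxia arrays, and precision is limited by the number of arrays. No array was identical to another. Stem cell markers read high in all 6 arrays for Nes (11.48 to 13.74), Sox2 (13.71 to 14.69), Vim (18.85 to 19.07) and Cd44 (15.79 to 16.78), while Prom1 read 3.03 to 3.68 and Olig2 5.38 to 7.41. Oligodendrocyte markers (5 of 6 measured) read 2.45 to 3.50, microglia and leukocyte markers (7) 2.08 to 6.48 and endothelial markers (6) 2.34 to 4.72. Pericyte and fibroblast markers (7) reached 8.58 through Acta2 in PBS replicate 3, with 7.06 in doranidazole replicate 3 and 3.39 to 4.07 in the other arrays. Among the neuron markers Tubb3 reached 10.82, and among the astrocyte markers Gja1 reached 15.53 with Gfap at 3.17 to 3.86. Of all these markers only Fabp7 passed the test, and Gja1 in addition with the block defined below. Cdkn2a, the deleted locus, read 2.16 to 2.49. The values hold no measure of background, and markers of endothelial cells reached 4.72, so genes with a group mean at or below that level (Bid, Gfap, Gsta2, Olig1, Pltp, Ptprz1, Ska1 and Xdh among those named) were not shown to be above background there, and their log2 differences may understate the change. The microglia marker Tmem119 read higher, 5.17 to 6.48. By that measure the PBS means of Cryab (4.81), Btg2 (5.09), 1700007K13Rik (5.18), Aldh3a1 and Cbr3 (5.33 each), Bhlhe41 (5.95), Blvrb (5.98) and Dgka (6.17), among others, were not shown to be above background either. Nor were the drug means of some genes that were lower, such as Car9 (5.23), Pold1 (5.71), Rfc3 (5.92), Hhat (5.97) and Cenpu (6.28). Their falls may be understated.

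Arrays with the same replicate number deviated together from their group means in normoxia, so each drug array could be set against the PBS array of its number. In hypoxia they did not (correlations of -0.0466 to -0.0202), and the labels state no pairing. The pairing was thus taken from the same values that the blocked fit tests. Both readings of the comparison are given. The unblocked fit used all 12 arrays in their 4 groups without a block. The blocked fit used the 6 normoxia arrays with the replicate number as a block, that is, the drug effect within each number. In both, the threshold was an adjusted p of 0.05 (limma, Benjamini-Hochberg over all probe sets), and "rose" or "fell" without further words refers to the unblocked fit. The titles call the arrays biological replicates, and the study describes biologically independent samples of 1 experiment. The labels do not say that the arrays came from separate cultures. The p-values therefore test a difference of means against the spread between these arrays, in the unblocked fit with the hypoxia arrays included.

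In the unblocked fit 287 probe sets rose (1.29% of all) and 65 fell (0.293%), together 1.59%, or 260 genes higher and 61 lower. With the block, 925 were higher (4.17%) and 689 lower (3.10%), together 7.27%, or 843 and 644 genes. Of the 352 probe sets that passed, 350 also passed with the block. A further 1264 passed in the blocked fit, and the share of higher calls was 81.5% in the unblocked and 57.3% in the blocked fit. These fits differ both in the block and in the use of the hypoxia arrays. The normoxia arrays alone without a block gave 1010 calls (60.7% higher), and a block over all 12 arrays gave 440 (80.9% higher). A gene said below to pass with the block passed in the blocked fit over the normoxia arrays, and the part of the block itself is not separated from that of leaving out the hypoxia arrays. Changes in the unblocked fit were large, with a median of 2.85-fold among the genes that rose (66 over 4-fold) and 2.41-fold among those that fell (4 over 4-fold). Genes that passed in the blocked and not in the unblocked fit changed less, by a median of 1.91-fold upward and 2.01-fold downward. The median standard error was 0.232 without the block and 0.183 with it. In every one of the 352 the 3 drug arrays lay on one side of the 3 PBS arrays, against 11.3% (above) and 10.5% (below) of all probe sets. By the criterion of the study (more than 2 times or less than 0.5 times the PBS level, unadjusted p below 0.05), 531 were higher (2.39%) and 322 lower (1.45%), together 3.84%. Without the fold criterion, 2841 of the 22206 probe sets had an unadjusted p under 0.05 in the unblocked fit. The counts of such genes in the lists below are to be read against that. Where no share stands beside them, counts of genes that rose or fell are to be read against the 1.29% and 0.293% above.

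Single arrays weighed on the number of calls. Without doranidazole replicate 1 only 38 probe sets passed in the unblocked fit, and without PBS replicate 1 only 66, while leaving out replicate 3 of the hypoxia PBS group gave 569 and replicate 3 of the hypoxia drug group 545. Counts without any other array of the normoxia groups ran from 135 to 247, and 231 passed without hypoxia PBS replicate 1. Of 76 named genes that passed, 10 still passed without doranidazole replicate 1 and 19 without PBS replicate 1, and none changed direction in any alternative. Gsta4, Trp53inp1, Dcxr, Btg2, Dgka, Creg1, 1700007K13Rik and Cd93 passed in each of 21 fits without a block.

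Promoters of 7 genes are shown because they belong to groups described below and hold a motif of a factor known to act on their group. Each is the 250 bases before a transcription start in the RefSeq annotation of GRCm38.p6, 5′ to 3′ on the strand of the gene, with the motif in capitals. Where a gene had several starts, the first whose window held the motif was taken, so it need not be the main start. Motifs were searched on both strands of windows of 300 bases, from 250 bases before to 50 after the start, in 32851 promoters of 27025 genes. A gene counts as holding a motif if any of its promoters does, so the shares below are shares of genes. For p53 the match is a pair of decamers with C and G at the fourth and the seventh base, up to 2 mismatches over the pair and a spacer of up to 13 bases. TGACNNNGC is the core of the antioxidant response element bound by NRF2 and shares its TGAC with AP-1 sites, TTTCGCGC and TTTGGCGC are E2F motifs, TTTGAA is a cell cycle homology region, and TGATGNAA is the core bound by ATF4 with C/EBP partners.
Cdkn1a, chr17:29090729-29090978, plus strand, p53 decamers: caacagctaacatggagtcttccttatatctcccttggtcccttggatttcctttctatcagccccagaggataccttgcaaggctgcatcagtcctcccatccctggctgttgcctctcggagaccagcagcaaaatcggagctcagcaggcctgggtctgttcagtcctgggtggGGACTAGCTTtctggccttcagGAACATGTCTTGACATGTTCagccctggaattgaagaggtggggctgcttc
Ccng1, chr11:40755287-40755536, minus strand, p53 decamers: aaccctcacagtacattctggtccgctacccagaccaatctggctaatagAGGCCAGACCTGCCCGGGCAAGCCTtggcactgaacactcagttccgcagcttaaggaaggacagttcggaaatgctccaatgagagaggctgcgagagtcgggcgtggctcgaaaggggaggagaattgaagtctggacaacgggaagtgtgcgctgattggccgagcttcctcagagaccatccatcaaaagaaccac
Gclm, chr3:122245307-122245556, plus strand, TGACNNNGC read on the other strand: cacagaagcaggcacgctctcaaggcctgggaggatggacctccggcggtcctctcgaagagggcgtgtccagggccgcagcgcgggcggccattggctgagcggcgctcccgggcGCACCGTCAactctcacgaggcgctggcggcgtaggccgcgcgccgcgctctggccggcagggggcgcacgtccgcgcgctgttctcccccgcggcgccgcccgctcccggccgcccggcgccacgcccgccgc
Mcm5, chr8:75109259-75109508, plus strand, overlapping TTTCGCGC and TTTGGCGC on opposite strands: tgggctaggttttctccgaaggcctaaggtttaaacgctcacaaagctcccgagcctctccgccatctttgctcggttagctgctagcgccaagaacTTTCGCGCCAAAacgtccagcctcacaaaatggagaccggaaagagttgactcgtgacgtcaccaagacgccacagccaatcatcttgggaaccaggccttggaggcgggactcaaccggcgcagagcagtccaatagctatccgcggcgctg
Kif15, chr9:122950831-122951080, plus strand, TTTGAA on either strand: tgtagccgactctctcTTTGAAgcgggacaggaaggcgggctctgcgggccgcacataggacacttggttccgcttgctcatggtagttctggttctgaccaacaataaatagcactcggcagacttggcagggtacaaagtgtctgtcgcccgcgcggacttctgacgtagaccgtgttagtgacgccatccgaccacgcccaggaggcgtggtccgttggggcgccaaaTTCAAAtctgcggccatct
Asns, chr6:7693210-7693459, minus strand, TGATGNAA: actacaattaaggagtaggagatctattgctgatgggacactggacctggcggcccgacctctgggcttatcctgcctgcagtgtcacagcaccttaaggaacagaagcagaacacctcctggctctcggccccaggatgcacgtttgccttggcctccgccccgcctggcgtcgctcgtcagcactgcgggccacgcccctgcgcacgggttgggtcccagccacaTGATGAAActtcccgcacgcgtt
Slc7a11, chr3:50443614-50443863, minus strand, TGATGNAA on either strand: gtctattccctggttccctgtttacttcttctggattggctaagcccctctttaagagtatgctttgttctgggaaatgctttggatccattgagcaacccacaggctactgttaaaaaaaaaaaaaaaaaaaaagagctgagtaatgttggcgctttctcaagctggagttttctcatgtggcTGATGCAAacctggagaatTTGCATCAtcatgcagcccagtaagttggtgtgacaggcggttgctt

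The share of all 27025 genes with each motif was 4.71% for the p53 pair, 14% for TGACNNNGC, 0.929% for the E2F motifs, 20.2% for TTTGAA, 41.1% for the CCAAT box, 8.09% for CACGTG and 4.51% for TGATGNAA. Among the 15691 measured genes with a promoter it was 4.33%, 15%, 1.29%, 17.8%, 42.2%, 9.26% and 3.95% in the same order. Among 206 of the 260 genes that rose, those with a promoter in the table, it was 10.2% for the p53 pair, 23.8% for TGACNNNGC and 14.1% for CACGTG. Among 45 of the 61 that fell it was 6.67%, 24.4% and 2.22%, so that TGACNNNGC was as frequent there, and among 688 genes higher with the block 5.81%, 20.9% and 13.8%. Among 525 of the 644 genes lower with the block it was 6.48% for the E2F motifs, 27.4% for TTTGAA and 56.4% for CCAAT. In the list of NRF2-dependent detoxifying enzymes it was 13.6% for TGACNNNGC (22 genes with a promoter), close to the share of all genes, and in that of the glutathione and thioredoxin systems 23.5% (17 genes). A match describes the letters in the window and is not evidence that a factor binds there.

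Genes of drug and electrophile metabolism were a group with many members that rose. Of 24 measured NRF2-dependent detoxifying enzymes, 10 rose and none fell, against 1.29% higher and 0.293% lower over all probe sets. With the block 16 were higher, against 4.17% of all probe sets, and 22 were higher in all 3 replicate numbers. The share of all probe sets that went 1 way in all 3 numbers is not given, here and for the lists below. The list median was 1.48 on the log2 scale (median of all probe sets -0.01), at 1.29, 1.48 and 1.21 within numbers 1, 2 and 3.

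Nqo1, the quinone reductase that is the standard NRF2 target, read 7.50, 7.30 and 6.03 with PBS and 11.71, 11.95 and 10.29 with doranidazole. The groups lay more than 2 log2 units apart, and replicate 3 was the low array on both sides. Its fold change was 20.7 (log2 4.37, SE 0.69, adjusted p = 0.0104, limma, n = 3 per group), and within numbers the log2 differences were 4.21, 4.65 and 4.27 (adjusted p = 7.07e-05 with the block). Gsta4, a glutathione transferase for the lipid peroxidation product 4-hydroxynonenal, read 8.19, 7.38 and 7.06 with PBS and 12.03, 12.90 and 10.62 with the drug. It rose 19.9-fold (log2 4.31, SE 0.51, adjusted p = 0.00228). Ptgr1, a reductase of prostaglandins and of unsaturated aldehydes, read 10.88, 9.79 and 9.44 with PBS and 14.21, 14.73 and 13.06 with the drug, a 15.6-fold rise (log2 3.97, SE 0.77, adjusted p = 0.0232). Drug replicate 3 was the lowest drug array for all 3 of these genes.

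Aldh3a1, an aldehyde dehydrogenase, read 5.20 to 5.57 with PBS and 9.30, 8.89 and 7.21 with doranidazole (8.79-fold, log2 3.14, SE 0.50, adjusted p = 0.0105). Its PBS arrays were nearly level and its drug arrays spread over about 2 log2 units. Ephx1, the microsomal epoxide hydrolase, showed the reverse, with PBS arrays from 10.64 to 12.81 and drug arrays from 14.88 to 15.13 (9.05-fold, log2 3.18, SE 0.46, adjusted p = 0.00762). Gsta2, a further glutathione transferase, rose (log2 2.29), as did the lysophospholipase gene Abhd4 (4.31-fold), the carbonyl reductase gene Cbr3 (3.56-fold) and the aldehyde oxidase gene Aox1 (2.90-fold), with adjusted p from 0.0148 to 0.0318. Gstm1 (log2 1.47) and the membrane-bound transferase gene Mgst1 (1.82) passed with the block and not in the unblocked fit (adjusted p = 0.00314 and 0.00162, against 0.0992 and 0.0688 without it). The glutathione transferases of a class are similar in sequence, and their probe sets may share signal.

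**Figure D1:**
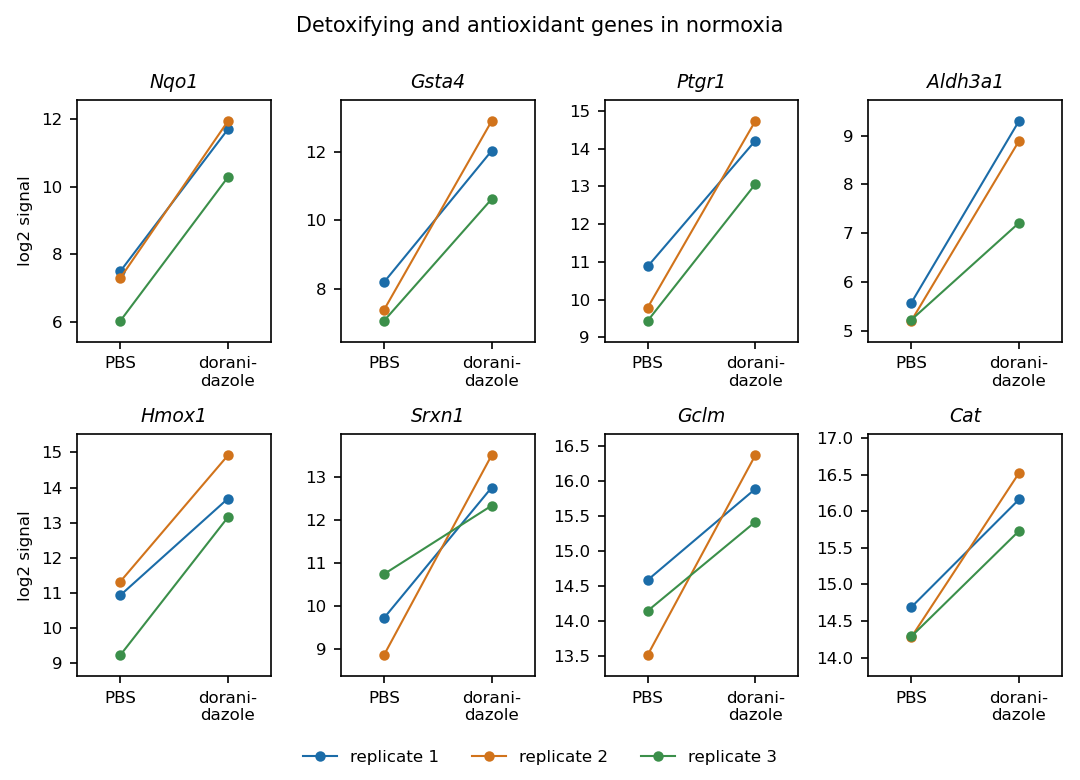
Log2 signal of 8 detoxifying and antioxidant genes in the 3 PBS and the 3 doranidazole arrays of the normoxia groups, each line joining the arrays of a replicate number. In all 8 panels each drug array lies above every PBS array; Nqo1 goes from 6.03 to 7.50 with PBS to 10.29 to 11.95 with the drug.

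Both subunits of glutamate-cysteine ligase, the enzyme that limits glutathione synthesis, rose. Gclm, the modifier subunit, read 14.59, 13.52 and 14.15 with PBS and 15.89, 16.37 and 15.42 with the drug (3.51-fold, log2 1.81, SE 0.31, adjusted p = 0.0137), and its promoter with the antioxidant response element core is shown above. Gclc, the catalytic subunit, rose 3.82-fold (log2 1.93, SE 0.36, adjusted p = 0.0197). Srxn1, which repairs oxidized peroxiredoxins, read 9.72, 8.86 and 10.74 with PBS and 12.75, 13.50 and 12.33 with the drug (8.48-fold, log2 3.08, SE 0.57, adjusted p = 0.0182). Its replicates changed order, since number 3 was the highest PBS array and the lowest drug array, with a difference of 1.58 against 4.65 in number 2. Txnrd1, thioredoxin reductase, rose 2.19-fold (log2 1.13, SE 0.23, adjusted p = 0.0289) and the peroxiredoxin gene Prdx1 1.68-fold (adjusted p = 0.0471). Together 5 of 19 genes of the glutathione and thioredoxin systems rose and none fell, against 1.29% and 0.293% of all probe sets. The list median was 0.37, with a wide range of -2.66 to 3.08. The drug arrays all lay above the PBS arrays for 7 and below for 2, against 11.3% and 10.5% of all. With the block 7 were higher and none lower, against 4.17% and 3.10% of all probe sets. The block added Slc7a11, the cystine carrier, which is described with the stress response genes below.

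Cat, catalase, which breaks down hydrogen peroxide, read 14.69, 14.28 and 14.29 with PBS and 16.16, 16.52 and 15.73 with the drug (3.30-fold, log2 1.72, SE 0.34, adjusted p = 0.0267). It was the only 1 of 10 measured hydrogen peroxide and superoxide enzymes to rise in the unblocked fit, and the list median was 0.13. Taldo1, transaldolase of the pentose phosphate pathway, rose 2.29-fold (adjusted p = 0.0190), and Pgd, the phosphogluconate dehydrogenase that yields NADPH, was 3.41-fold higher with the block (adjusted p = 0.0147, against 0.0502 without it). The NADPH-forming malic enzyme gene Me1 also passed with the block (log2 0.91, adjusted p = 0.0195). The list of 8 pentose phosphate and NADPH enzymes had a median of -0.04, against which these 3 were high. Among 12 regulators of NRF2 none passed in the unblocked fit, where 2 had an unadjusted p under 0.05, and Sqstm1, the p62 autophagy receptor that binds KEAP1, passed with the block (log2 1.35, adjusted p = 0.00381). Bach1, a repressor of antioxidant response elements, had a log2 fold change of 0.57 (SE 0.23, adjusted p = 0.293).

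Of 10 measured enzymes able to reduce nitro groups or quinones, 4 rose, against 1.29% of all probe sets: Nqo1, Txnrd1, Aox1 and Cbr3. Nqo1 and Aox1 were also counted among the detoxifying enzymes, and Txnrd1 among the glutathione and thioredoxin genes, so they are not further calls. Xdh, xanthine dehydrogenase, read 3.96, 4.51 and 4.97 with PBS and 5.78, 5.98 and 6.70 with the drug and passed with the block (log2 1.67, adjusted p = 0.00164, against 0.0925). Its differences in numbers 1, 2 and 3 were close together, at 1.82, 1.47 and 1.73.

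Of 28 heme, iron and ferroptosis genes 3 rose and none fell. Hmox1, heme oxygenase, read 10.94, 11.33 and 9.24 with PBS and 13.69, 14.92 and 13.16 with the drug (10.7-fold, log2 3.42, SE 0.75, adjusted p = 0.0432, and 0.000563 with the block). Number 3 was low on both sides. Without the block Hmox1 passed in 10 of 21 fits. Slc48a1, a lysosomal heme carrier, read 13.30, 13.55 and 13.11 with PBS and 15.58, 15.85 and 15.35 with the drug (4.84-fold, log2 2.27, SE 0.40, adjusted p = 0.0159). Its differences in the 3 numbers were 2.28, 2.30 and 2.24. Gch1, the enzyme for tetrahydrobiopterin, rose 2.31-fold (adjusted p = 0.0106). Blvrb, biliverdin reductase B (log2 2.06), Ftl1, the ferritin light chain (1.08), Tfrc, the transferrin receptor (1.80), and Steap3, a ferrireductase of endosomes (1.29), passed with the block and not in the unblocked fit, with adjusted p of 0.00462, 0.00729, 0.0498 and 0.0451. With the block 8 genes of the list were higher and 2 lower, against 4.17% and 3.10% of all probe sets. Mt3 was the 1 of 7 metallothionein and zinc genes to rise, 4.22-fold (log2 2.08, SE 0.36, adjusted p = 0.0140).

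None of 8 drug efflux transporters passed in the unblocked fit, where 5 had an unadjusted p under 0.05. With the block 5 were higher, against 4.17% of all probe sets. They included Abcc1 (2.97-fold, adjusted p = 0.00373, against 0.0509) and Abcc4 (5.17-fold, adjusted p = 0.00871, against 0.143), both exporters of glutathione conjugates or cyclic nucleotides, and Abcb1b, a P-glycoprotein gene (2.07-fold, adjusted p = 0.00842, against 0.0527). Abcc4 read 9.07 to 9.51 with PBS and 11.63, 12.79 and 10.35 with the drug, so that the groups did not overlap and the drug arrays spread over more than 2 log2 units.

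Without doranidazole replicate 1, 1 of the 24 detoxifying enzymes and none of the glutathione and thioredoxin genes passed without a block, and without PBS replicate 1, 4 and 1 did. Without doranidazole replicate 2 these counts were 4 and 0, without PBS replicate 2 they were 7 and 1, and without PBS replicate 3 they were 8 and 2. In the blocked fit with 1 number left out, 14 to 16 of the detoxifying enzymes passed. Over the 15 genes of both lists that rose, doranidazole replicate 2 was the highest drug array for 11 and replicate 3 the lowest for 11, and number 2 had the largest difference for 10.

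Targets of p53 formed the other large group with genes that rose. Of 41 measured, 17 rose and none fell, with a median of 0.93, and 20 were higher with the block, against 1.29% and 4.17% of all probe sets. The drug arrays all lay above the PBS arrays for 24 and below for 1, against 11.3% and 10.5%. Cdkn1a, which encodes p21, read 13.38, 15.28 and 15.18 with PBS and 17.05, 17.03 and 17.23 with doranidazole. Its drug arrays were nearly level, while PBS replicate 1 lay far below the other PBS arrays. It rose 5.63-fold (log2 2.49, SE 0.42, adjusted p = 0.0137), and its differences in numbers 1, 2 and 3 were 3.68, 1.75 and 2.05. Mdm2, the ubiquitin ligase that degrades p53, read 13.24, 14.78 and 14.34 with PBS and 16.09, 16.05 and 16.60 with the drug (4.37-fold, log2 2.13, SE 0.39, adjusted p = 0.0181). Ccng1, cyclin G1, read 13.76, 14.81 and 16.03 with PBS and 17.59, 17.45 and 17.51 with the drug (6.29-fold, log2 2.65, SE 0.47, adjusted p = 0.0159).

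Eda2r, a death receptor of the TNF receptor family, read 5.84, 6.96 and 8.53 with PBS and 11.51, 10.50 and 11.59 with the drug (17.0-fold, log2 4.09, SE 0.63, adjusted p = 0.0103). Trp53inp1, a stress-induced nuclear protein that acts with p53, read 7.74, 9.38 and 9.15 with PBS and 12.56, 12.00 and 12.62 with the drug (12.4-fold, log2 3.64, SE 0.38, adjusted p = 0.00103). Btg2, an antiproliferative factor, read 4.44, 5.24 and 5.58 with PBS and 8.43, 7.09 and 8.39 with the drug (7.36-fold, log2 2.88, SE 0.38, adjusted p = 0.00419). For these 3 genes PBS replicate 1 was the lowest of all arrays and doranidazole replicate 2 the lowest drug array. Dcxr, a xylulose and dicarbonyl reductase, rose 11.3-fold (log2 3.50, SE 0.36, adjusted p = 0.000952), Pidd1, the scaffold of the PIDDosome, 7.47-fold, Phlda3, an AKT inhibitor, 5.37-fold and the RNA-binding factor gene Zmat3 4.74-fold (adjusted p from 0.0140 to 0.0295). Sulf2, a heparan sulfatase, rose 4.47-fold (adjusted p = 0.0105), Polk, a translesion polymerase, 4.29-fold (adjusted p = 0.0095), and Ei24, a protein of the endoplasmic reticulum membrane, 3.05-fold (adjusted p = 0.0103). Dgka, a diacylglycerol kinase, had tight arrays, 6.11 to 6.27 with PBS and 7.81 to 8.16 with the drug (3.44-fold, log2 1.78, SE 0.24, adjusted p = 0.00528).

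**Figure D2:**
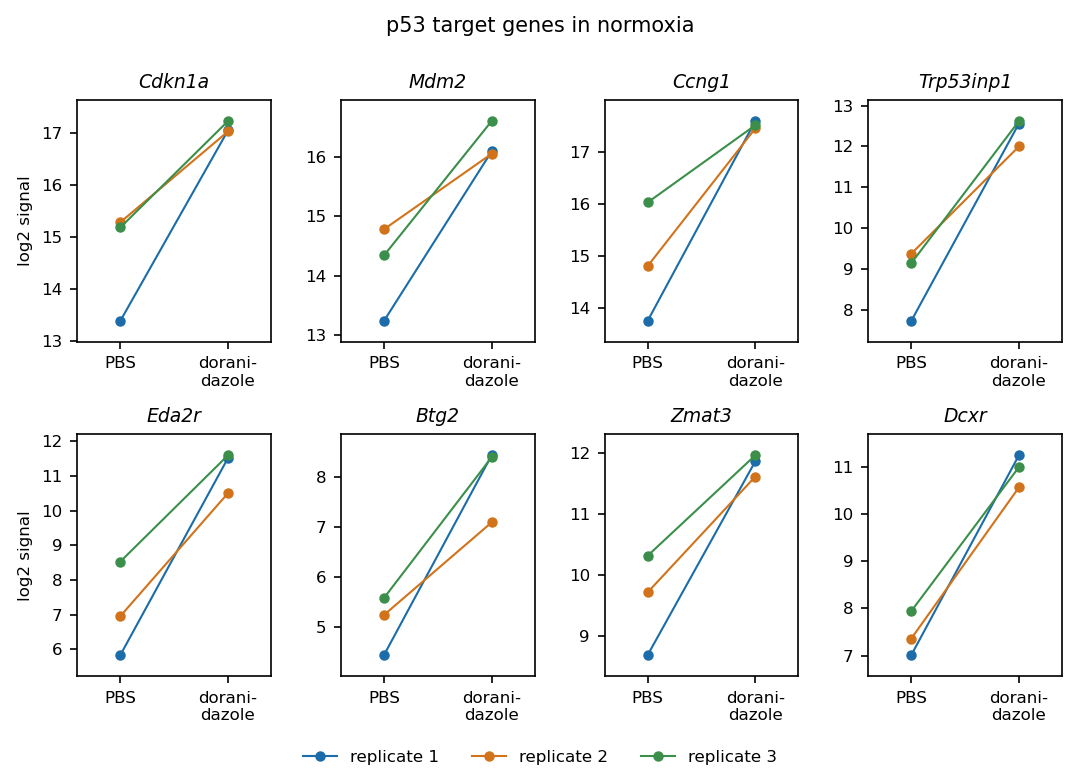
Log2 signal of 8 p53 targets in the 3 PBS and the 3 doranidazole arrays of the normoxia groups, each line joining the arrays of a replicate number. PBS replicate 1 is the lowest array in every panel, and the drug arrays lie closer together than the PBS arrays for Cdkn1a, 17.03 to 17.23 against 13.38 to 15.28.

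Most p53 targets that rose shared an order of arrays that was less frequent among the detoxifying, glutathione and thioredoxin genes that rose. Of the 17 p53 targets that rose, PBS replicate 1 was the lowest PBS array for 13 and doranidazole replicate 2 the lowest drug array for 15, and number 1 had the largest difference for 15. These counts were 5, 3 and 5 of the 15 detoxifying, glutathione and thioredoxin genes, and 109, 117 and 135 of all 260 genes that rose. Over all 260 genes that rose, number 1 had the largest difference for 135, number 2 for 84 and number 3 for 39. The SD of the PBS arrays was larger than that of the drug arrays for 13 of the 17, and for 172 of the 260. List medians within numbers 1, 2 and 3 were 1.33, 0.84 and 0.90. Without PBS replicate 1, 8 of the 41 targets passed without a block, without doranidazole replicate 1 4, without doranidazole replicate 3 9 and without PBS replicate 2 12, while 18 to 21 passed in the blocked fit with any number left out.

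Of 11 genes for p53 and its regulators, only Mdm2 rose, and with the block Chek1, a checkpoint kinase, was lower (log2 -1.27, adjusted p = 0.00548, against 0.381). None of 15 BCL2 family genes passed in the unblocked fit, where 4 had an unadjusted p under 0.05, against 2841 of 22206 probe sets. The BH3-only genes Bid (log2 1.04, adjusted p = 0.0167) and Bcl2l11 (0.92, adjusted p = 0.0179) were higher with the block. The p53 pair was found in 15.2% of the genes of the p53 target list (33 with a promoter), against 4.71% of all genes. In Cdkn1a, shown above, the decamers begin 73, 51 and 41 bases before the annotated start taken for that window.

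Many genes of the cell cycle were lower, most of them in the blocked and not in the unblocked fit. Fewer cycling cells and less RNA per cell cannot be told apart in bulk RNA. Mybl2, the MYB factor that works with the MuvB core on mitotic genes, read 11.30, 11.15 and 11.19 with PBS and 8.34, 8.65 and 8.78 with the drug. It fell 6.16-fold (log2 -2.62, SE 0.44, adjusted p = 0.0137), the largest fall of the genes named here. Lin9, a subunit of that core, fell 2.20-fold (adjusted p = 0.0464), and Rb1, the retinoblastoma gene, rose 3.07-fold (log2 1.62, SE 0.27, adjusted p = 0.0129). Of 38 cyclins, CDKs, E2F and MYBL2-related genes, 2 rose, Cdkn1a and Rb1, and 2 fell, Mybl2 and Lin9. With the block 12 were lower, against 3.10% of all probe sets. Ccna2, cyclin A2, read 14.11, 13.24 and 13.98 with PBS and 12.07, 11.91 and 12.06 with the drug, and passed with the block and not in the unblocked fit (log2 -1.76, adjusted p = 0.00208, against 0.145). Cdk1, the mitotic kinase, was lower by 1.39 on the log2 scale in the same way (adjusted p = 0.0101, against 0.402).

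Of 42 measured genes of DNA replication and licensing, 2 fell in the unblocked fit and 37 were lower with the block, against 0.293% and 3.10% of all probe sets. Of the 42, 40 were lower in all 3 replicate numbers and 35 had all drug arrays below all PBS arrays, the latter against 10.5% of all. The list median was -1.16, at -1.39, -1.02 and -1.04 within numbers 1, 2 and 3. Pold1, the catalytic subunit of polymerase delta, fell 2.73-fold (log2 -1.45, SE 0.29, adjusted p = 0.0273) and Rfc3, of the clamp loader, 2.04-fold (adjusted p = 0.0471). Mcm5, a subunit of the replicative helicase, read 12.18, 11.37 and 11.85 with PBS and 10.23, 9.80 and 10.21 with the drug. Its differences were -1.95, -1.58 and -1.63, with an adjusted p of 0.00162 with the block and 0.423 without it, where its standard error was 0.83 against 0.17. Mcm3 (log2 -1.64), Mcm6 (-1.57) and Rfc4 (-1.87) likewise passed with the block and not in the unblocked fit, with adjusted p of 0.00188, 0.00276 and 0.00197 with the block and 0.148, 0.218 and 0.0533 without it. Pcna, the sliding clamp, was lower by 0.81 with the block (adjusted p = 0.0336), and its groups overlapped. The E2F motifs were in 32.4% of 34 genes of this list with a promoter, against 0.929% of all genes and 1.29% of the measured genes.

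Of 69 genes of mitosis, kinetochore and centromere, 4 fell in the unblocked fit, and with the block 51 were lower and 1 higher. The shares of all probe sets were 0.293% lower without and 3.10% lower with the block. The list median was -1.04, and 56 had all drug arrays below all PBS arrays, against 10.5% of all. Spc24, of the NDC80 complex at the kinetochore, read 9.22, 10.02 and 8.49 with PBS and 6.90, 7.18 and 7.13 with the drug (4.51-fold lower, log2 -2.17, SE 0.49, adjusted p = 0.0477). Kif18a, a kinesin that shortens kinetochore microtubules, fell 3.19-fold (adjusted p = 0.0273), the centromere gene Cenpu 3.15-fold (adjusted p = 0.0413) and Ska1, which couples kinetochores to microtubules, by 1.55 on the log2 scale (adjusted p = 0.0405). Kif15, a spindle kinesin, read 12.08, 12.11 and 12.17 with PBS and 10.04, 10.57 and 10.66 with the drug, and passed with the block and not in the unblocked fit (log2 -1.70, adjusted p = 0.00198, against 0.152). Aurkb, the kinase of the chromosomal passenger complex, read 12.76 to 13.02 with PBS and 11.33 to 11.43 with the drug (log2 -1.53, adjusted p = 0.00202, against 0.233). The normoxia arrays of Kif15 and Aurkb were thus tight within each group, while their standard errors in the fit over 12 arrays were 0.53 and 0.56. In hypoxia with PBS, Aurkb read 11.44, 9.96 and 13.23. TTTGAA was in 66.1% of 62 genes of this list with a promoter and CCAAT in 67.7%, against 20.2% and 41.1% of all genes.

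Histone genes of the H1 to H4 clusters, a set chosen after their values were seen, were lower as well. Of 53 measured, 1 fell in the unblocked fit and 48 were lower with the block, against 0.293% and 3.10% of all probe sets. In all 3 numbers 52 were lower, and the median was -1.46 (range -2.61 to -0.46). These genes are transcribed mainly in S phase, and since many copies are nearly identical their probe sets may report each other. H1f5, a linker histone, read 11.44, 11.24 and 13.13 with PBS and 9.41, 9.70 and 8.87 with the drug (log2 -2.61, adjusted p = 0.0100 with the block and 0.137 without). H2bc13 (log2 -2.27), H2bc12 (-2.21), H2ac8 (-2.18), H3c8 (-2.11) and H2bc8 (-2.07) followed, with adjusted p from 0.00168 to 0.00274 with the block. Unlike the replication genes, the histones differed most in number 3, with medians of -1.04, -1.54 and -1.85 in numbers 1, 2 and 3, and number 3 was the most negative for 45 of the 53.

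**Figure D3:**
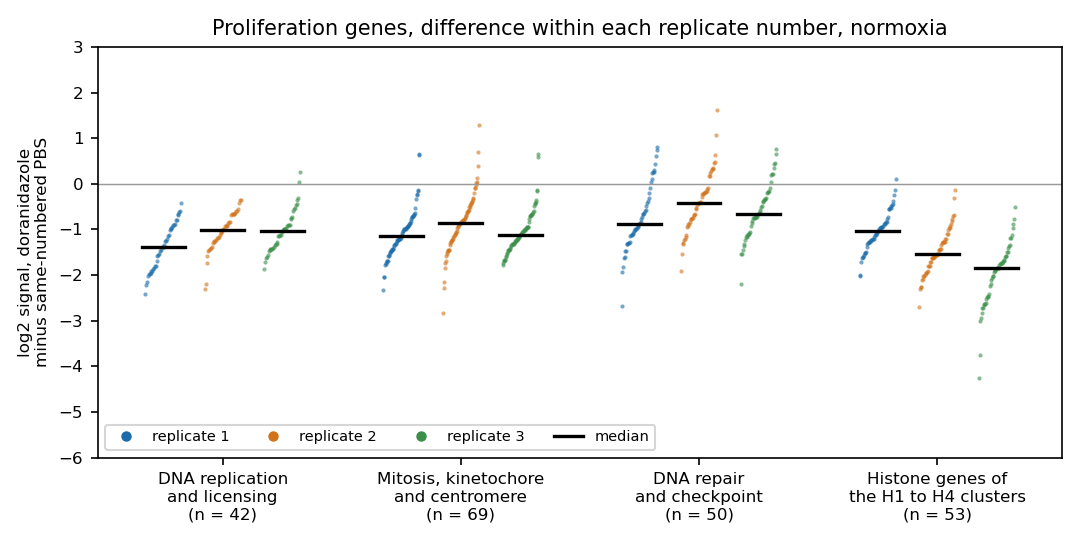
Log2 difference between doranidazole and PBS arrays of the same replicate number for every measured gene of 4 groups, with points sorted within each number and black bars at the medians. Replication genes have medians of -1.39, -1.02 and -1.04 in numbers 1, 2 and 3, and histone genes -1.04, -1.54 and -1.85.

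Of 50 genes of DNA repair and checkpoints, 3 fell and none rose, with a median of -0.62. With the block 18 were lower, against 3.10% of all probe sets. Tipin, of the replication fork protection complex, fell 2.76-fold (log2 -1.46, SE 0.33, adjusted p = 0.0453), Nbn, of the complex that senses DNA breaks, 2.25-fold (adjusted p = 0.0377) and Bard1, the partner of BRCA1, 2.24-fold (adjusted p = 0.0375). Neil3, a DNA glycosylase (log2 -1.53), and the tumor suppressor gene Brca2 (-1.37), passed with the block and not in the unblocked fit (adjusted p = 0.00390 and 0.00584). Usp1, which removes ubiquitin from PCNA and FANCD2, was among the brightest probe sets and fell 2.77-fold (adjusted p = 0.0469), and Tdp1, which frees trapped topoisomerase I, fell 2.87-fold (adjusted p = 0.0289).

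Without a block, no replication gene and no mitosis gene passed when any normoxia array was left out, except 1 mitosis gene without PBS replicate 3. Without hypoxia PBS replicate 3, 11 and 16 passed, and with only the normoxia groups in the fit 22 and 43. With the block extended to all 12 arrays, 2 replication and 3 mitosis genes were lower. In the blocked fit with 1 number left out, 22 to 32 replication and 24 to 51 mitosis genes passed.

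Amino acid and one-carbon genes of the integrated stress response, the program driven by ATF4, differed mainly between replicate numbers. Of 31 measured, none passed in the unblocked fit, where 3 had an unadjusted p under 0.05, against 2841 of 22206 probe sets. With the block 14 were lower and 1 higher, against 3.10% and 4.17% of all probe sets. Array 2 was the highest on both the PBS and the drug side for 30 of the 31 genes, against 2901 of 19505 genes, and array 3 the lowest on both sides for 26. The PBS arrays ranged over a median of 3.47 log2 units in these genes and 0.43 over all probe sets.

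Mthfd2, a mitochondrial folate enzyme, read 13.37, 15.14 and 11.67 with PBS and 11.04, 13.62 and 9.39 with the drug. The groups overlapped, yet the drug array was lower in each number, by -2.33, -1.52 and -2.28 (log2 -2.04, adjusted p = 0.00162 with the block and 0.426 without). Psat1, of serine synthesis, read 15.40, 16.09 and 14.28 with PBS and 13.12, 15.30 and 11.56 with the drug (log2 -1.93, adjusted p = 0.0105 with the block and 0.265 without). Asns, asparagine synthetase, read 15.53, 17.55 and 13.74 with PBS and 13.77, 16.52 and 12.43 with the drug, with differences of -1.76, -1.03 and -1.31 (log2 -1.37, adjusted p = 0.00533 and 0.691). The order 2, 1, 3 held on both sides of all 3 genes. Phgdh, of serine synthesis (log2 -1.92), Shmt2, a mitochondrial serine transferase (-1.84), and Slc7a5, the large neutral amino acid carrier (-1.40), were lower in the same way, with adjusted p of 0.00445, 0.00353 and 0.00557 with the block. All 14 genes lower with the block had overlapping groups.

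Slc7a11, the cystine carrier that NRF2 and ATF4 both induce, was the exception. It read 11.63, 13.15 and 8.10 with PBS and 13.88, 15.74 and 11.53 with the drug, so that it kept the order 2, 1, 3 but was higher in each number, by 2.25, 2.59 and 3.44. Its log2 difference of 2.76 had an adjusted p of 0.00114 with the block and 0.510 without. Herpud1, of endoplasmic reticulum-associated degradation, had the same order of arrays and was lower with the block (log2 -1.26, adjusted p = 0.0177). Myc, the proliferation factor, read 14.10, 15.20 and 14.79 with PBS and 13.25, 14.19 and 13.91 with the drug (log2 -0.92, adjusted p = 0.0142 with the block and 0.179 without). TGATGNAA was in 34.6% of 26 genes of the list with a promoter, against 4.51% of all genes, and both Asns and Slc7a11 hold it in the windows shown above. Of 22 endoplasmic reticulum chaperones and unfolded protein response genes, 1 fell, the DnaJ cofactor gene Sdf2l1 (2.05-fold, adjusted p = 0.0348), with a median of -0.36. Since the deposited values name no culture or day behind a number, what array 2 and array 3 share was not tested.

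**Figure D4:**
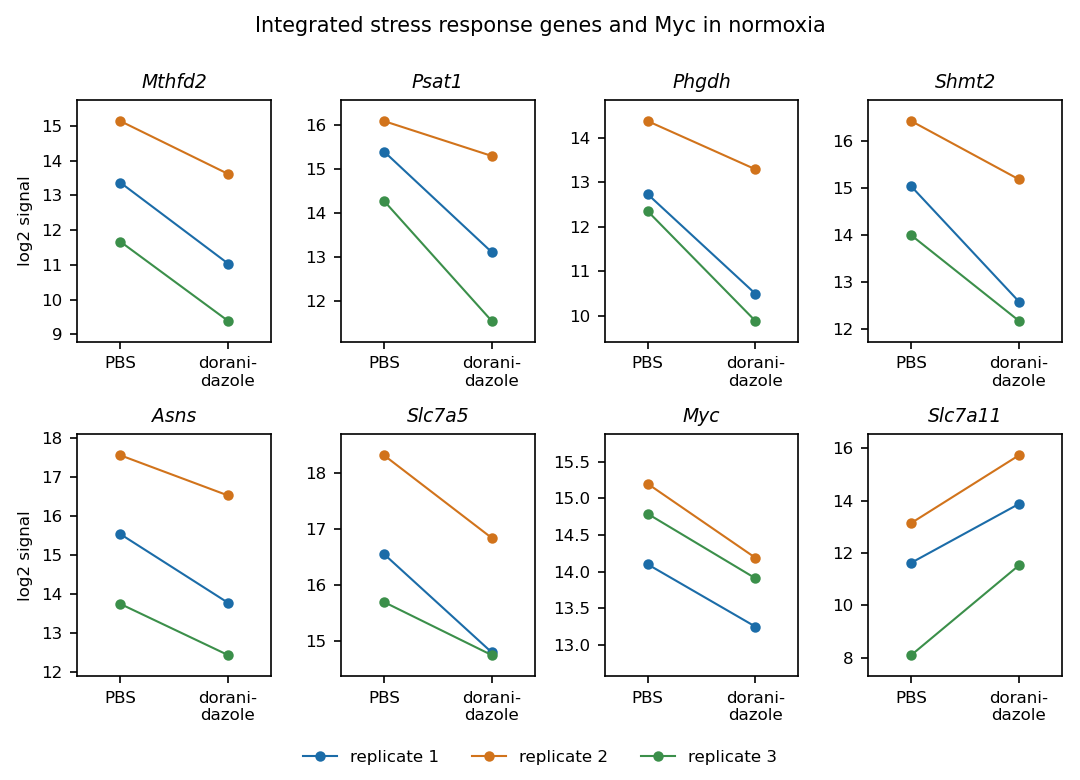
Log2 signal of 7 genes lower with the replicate block (Mthfd2, Psat1, Phgdh, Shmt2, Asns, Slc7a5 and Myc) and of Slc7a11 in the PBS and doranidazole arrays of normoxia, each line joining the arrays of a replicate number. All 3 lines run downward in 7 panels and upward for Slc7a11, by 1.03 to 1.76 for Asns and 2.25 to 3.44 for Slc7a11, while the PBS arrays of Mthfd2 span 11.67 to 15.14.

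Of 31 measured lysosome and autophagy genes, 2 rose and none fell, and with the block 16 were higher, against 1.29% and 4.17% of all probe sets. The median was 0.71 (range -0.21 to 2.48), and 22 had all drug arrays above all PBS arrays, against 11.3% of all. Flcn, folliculin, which acts on mTORC1 at the lysosome, rose 2.75-fold (log2 1.46, SE 0.32, adjusted p = 0.0403) and Map1lc3b, an LC3 protein of autophagosomes, 2.16-fold (adjusted p = 0.0487). Gpnmb, a lysosomal glycoprotein, read 5.75, 7.30 and 8.24 with PBS and 8.98, 9.55 and 10.20 with the drug (log2 2.48, adjusted p = 0.00162 with the block and 0.158 without). Lamp2, of the lysosomal membrane (log2 0.82), and the protease gene Ctsb (0.73) passed with the block and not in the unblocked fit (adjusted p = 0.0231 and 0.0390). CACGTG, the motif of TFEB and other E-box factors, was in 32% of 25 genes of the list with a promoter, against 8.09% of all genes. Creg1, a secreted lysosomal glycoprotein outside the list, rose 7.73-fold (8.05 ± 0.32 with PBS and 11.00 ± 0.91 with the drug, SD, n = 3, adjusted p = 0.00784). No lysosome gene passed without a block when PBS replicate 1 or 3 or any drug array of normoxia was left out, or after array medians were made equal, and 2 passed without PBS replicate 2. With 1 number left out of the blocked fit 4, 5 and 12 did (without numbers 3, 1 and 2).

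Among other lists, 3 of 23 purine nucleotide enzymes rose, against 1.29% of all probe sets. Ampd3, AMP deaminase, read 8.78, 7.57 and 7.97 with PBS and 11.73, 12.84 and 11.21 with the drug (14.1-fold, log2 3.82, SE 0.59, adjusted p = 0.0101). The adenylate kinase gene Ak1 rose 4.77-fold (adjusted p = 0.0288) and Adssl1, adenylosuccinate synthase, 2.98-fold (adjusted p = 0.0356). With the block 5 enzymes of this list were higher and 4 lower, against 4.17% and 3.10% of all probe sets, and the median was -0.18. Of 19 clock genes 3 rose, against 1.29% of all probe sets. All 3 were nuclear receptors: Nr1d1 (2.91-fold, adjusted p = 0.0250), Rorb (2.68-fold, adjusted p = 0.0095) and Nr1d2 (1.78-fold, adjusted p = 0.0450). With the block 6 clock genes were higher and none lower, against 4.17% and 3.10% of all probe sets. Dbp, an output factor of the clock (log2 2.21), and the repressor gene Bhlhe41 (1.81) passed with the block and not in the unblocked fit (adjusted p = 0.00112 and 0.00162). None of the clock genes passed without PBS replicate 1 or without doranidazole replicate 1, and 1 did without any other normoxia array.

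Lipid and hypoxia genes held few calls. In cholesterol synthesis and uptake, Abca1, the cholesterol exporter, rose 3.10-fold (log2 1.63, SE 0.26, adjusted p = 0.0104) and Lss, lanosterol synthase, fell 2.48-fold (adjusted p = 0.0302), with PBS values of 14.39, 13.12 and 14.16 and drug values of 12.42 to 12.74. The list median of -0.45 hid a split between numbers, at -0.97, 0.22 and -0.72. None of 13 fatty acid synthesis genes passed in the unblocked fit (3 with an unadjusted p under 0.05), and Fads1, a desaturase, had a log2 fold change of -0.53 (SE 0.19, adjusted p = 0.230). Of 29 targets of hypoxia-inducible factor, 1 rose, the mitophagy receptor gene Bnip3l (2.50-fold, adjusted p = 0.0405). With the block 7 were lower, against 3.10% of all probe sets, among them Car9, a carbonic anhydrase (log2 -1.52, adjusted p = 0.0462, PBS arrays 5.01 to 8.08). Hk1, a hexokinase, was the 1 of 19 glycolysis genes to rise (1.98-fold, adjusted p = 0.0411).

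Signaling and stem cell lists held few calls. Jund, an AP-1 subunit, rose 2.24-fold (adjusted p = 0.0451) as the 1 of 26 immediate early genes. Of 18 RAS-ERK output genes none passed in the unblocked fit (4 with an unadjusted p under 0.05), and Dusp4, an ERK phosphatase (log2 0.84, adjusted p = 0.0279), and the cytokine gene Lif (1.87, adjusted p = 0.00148) were higher with the block. None of 13 inducible heat shock chaperones passed in the unblocked fit (4 with an unadjusted p under 0.05), and the small heat shock protein gene Cryab (log2 1.17, adjusted p = 0.00602) and Dnajb4 (1.27, adjusted p = 0.00549) were higher with the block. Of 38 neural and glioma stem cell genes 2 fell, Fabp7, the brain fatty acid-binding protein (3.28-fold, adjusted p = 0.0313), and the transcription factor gene Sox11 (1.99-fold, adjusted p = 0.0328). With the block 5 were lower, with Olig1, an oligodendrocyte lineage factor (log2 -1.78), and Ptprz1, a receptor phosphatase (-1.87), among them, and 4 higher, with the inhibitor of differentiation genes Id1 (0.93), Id2 (1.27) and Id3 (1.06). The shares of all probe sets with the block were 3.10% lower and 4.17% higher. Csf1, the macrophage growth factor, rose 3.66-fold (13.55 ± 0.64 to 15.43 ± 0.31, SD, n = 3, adjusted p = 0.0104) as the 1 of 25 cytokines and chemokines.

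Several lists had no gene that passed in either fit. These were 20 genes of the tricarboxylic acid cycle (1 with an unadjusted p under 0.05), 32 of the proteasome (5) and 38 nuclear subunits of complexes I and II (3), with medians of 0.05, -0.22 and -0.06. Over all 22206 probe sets, 2841 had an unadjusted p under 0.05. For complex II, the 95% intervals of the log2 fold change ran from -0.75 to 0.70 for Sdha, -0.43 to 0.28 for Sdhb, -0.16 to 0.80 for Sdhc and -0.40 to 0.83 for Sdhd. Changes inside these intervals could not be shown with 3 arrays a group. Ndufb2 (log2 0.70, adjusted p = 0.144) and Ndufs8 (-0.59, adjusted p = 0.175), both of complex I, had the smallest p in that list, Suclg2 (-0.57, adjusted p = 0.215) and Fh1 (-0.56, adjusted p = 0.589) in the cycle, and Psmc5 (-0.72, adjusted p = 0.128) and Psmd3 (-0.75, adjusted p = 0.182) in the proteasome. None of 30 collagens and matrix enzymes passed in the unblocked fit (4 with an unadjusted p under 0.05), and the protease gene Adamts4 was higher with the block (log2 1.30, adjusted p = 0.0423). Col18a1, collagen XVIII, had a log2 fold change of 0.61 (SE 0.19, adjusted p = 0.147).

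**Figure D5:**
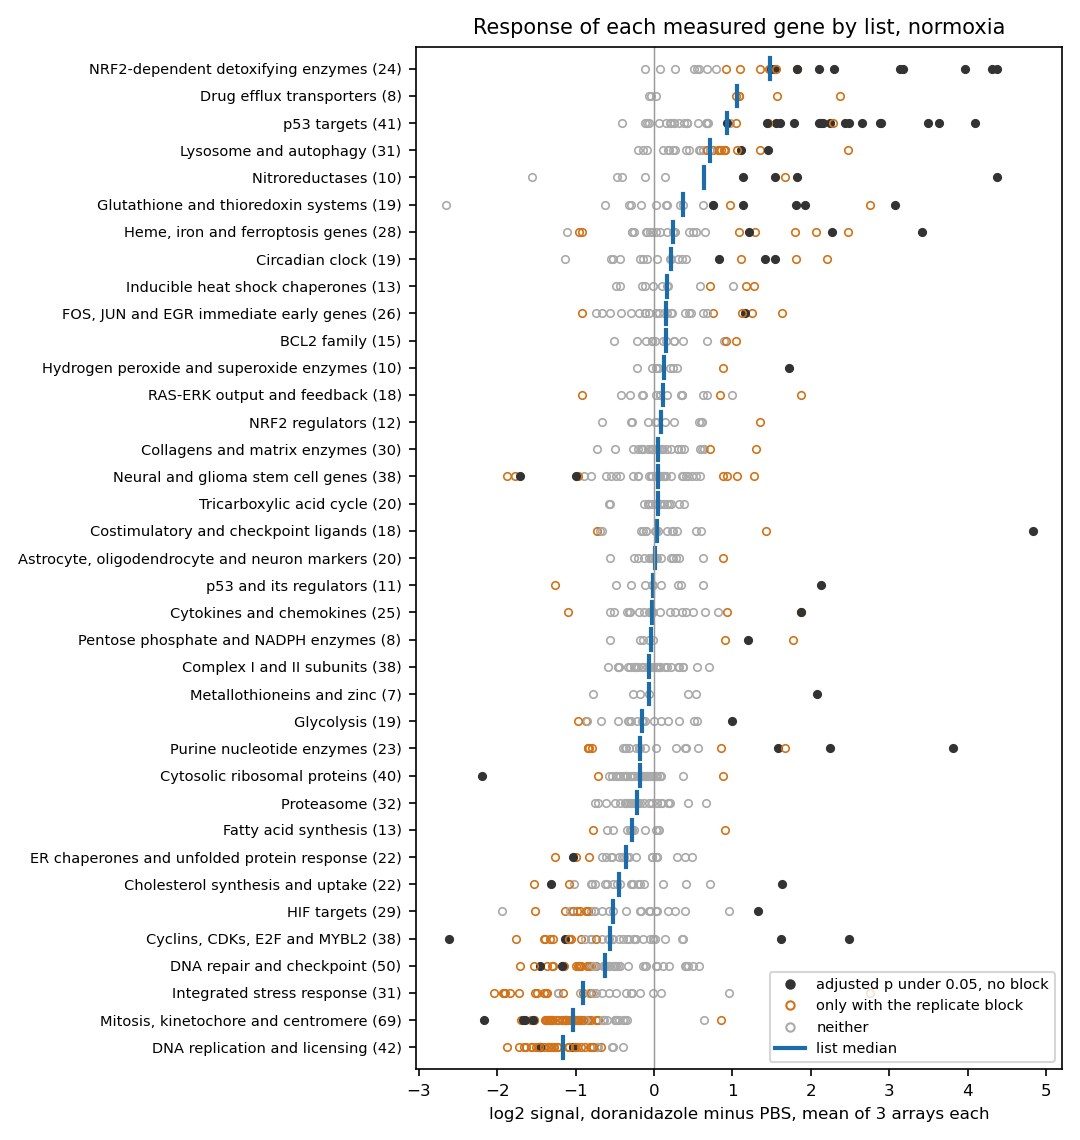
Log2 fold change of each measured gene in 37 lists, ordered by list median (blue bars), with filled points for genes past an adjusted p of 0.05 without a block, open orange points for those past it only in the blocked fit over the normoxia arrays, and gray points for the rest. Of the lists, p53 targets (median 0.93, 17 filled points) and detoxifying enzymes (1.48, 10) hold the largest numbers of filled points, while replication (-1.16) and mitosis (-1.04) hold mostly orange points.

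The genes with the largest changes outside these groups had varied roles. Cd80, a costimulatory ligand for T cells, read 5.30, 7.01 and 9.31 with PBS and 11.87, 11.50 and 12.75 with the drug. It rose 28.4-fold (log2 4.83, SE 1.02, adjusted p = 0.0354, and 0.00162 with the block), with differences of 6.57, 4.48 and 3.44 that followed the spread of its PBS arrays. It was the 1 of 18 costimulatory and checkpoint ligands to rise. 1700007K13Rik, a gene of unknown role, read 4.88, 4.92 and 5.73 with PBS and 10.44, 9.15 and 10.04 with the drug (26.0-fold, log2 4.70, SE 0.46, adjusted p = 0.000888). Gpr137b, a lysosomal membrane protein, rose (log2 3.70, SE 0.56, adjusted p = 0.0095), and its pseudogene Gpr137b-ps, which may share its signal, was 6.56-fold higher with the block (adjusted p = 0.0142). Pltp, the phospholipid transfer protein, rose (log2 3.35, SE 0.60, adjusted p = 0.0173) and the secreted protein gene Glipr1 9.47-fold (log2 3.24, SE 0.58, adjusted p = 0.0169). For Glipr1 the drug arrays read 16.41 to 16.87 and the PBS arrays 12.64, 12.53 and 15.19.

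Genes higher with the block and not in the unblocked fit included Ano3, an anoctamin (log2 2.87, adjusted p = 0.000658), Mapk10, the neuronal JNK3 kinase (2.79, adjusted p = 0.00162), and Gria3, an AMPA receptor subunit (2.52, adjusted p = 0.00162). Ano3 read 5.29, 4.65 and 7.22 with PBS and 8.68, 7.01 and 10.08 with the drug, so that the groups overlapped while number 3 was high and number 2 low on both sides. Among the genes that fell most, Cd93, a C-type lectin receptor, read 11.09, 11.01 and 9.95 with PBS and 8.13, 8.95 and 7.96 with the drug (5.05-fold lower, log2 -2.34, SE 0.32, adjusted p = 0.0052). Rpl22l1, a paralog of ribosomal protein L22, read 12.27, 12.25 and 11.97 with PBS and 9.82, 10.77 and 9.33 with the drug (4.57-fold lower, log2 -2.19, SE 0.45, adjusted p = 0.0312). It was the 1 of 40 cytosolic ribosomal protein genes to fall, and their median was -0.18. Hhat, the hedgehog acyltransferase, fell 3.63-fold (adjusted p = 0.0465), Pde2a, a cyclic nucleotide phosphodiesterase, 2.90-fold (adjusted p = 0.0335) and Lyar, a nucleolar growth regulator, 2.86-fold (log2 -1.52, SE 0.27, adjusted p = 0.0163).

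The response in hypoxia was set against the response in normoxia with an interaction term over the 12 arrays. It differed for 3003 probe sets, 13.5% of those tested. Nqo1 rose further in hypoxia than in normoxia (difference of the log2 responses 3.28, SE 0.98, adjusted p = 0.0432), and so did Gsta4 (5.38, adjusted p = 0.00036) and Txnrd1 (2.99, adjusted p = 7.85e-05). For Cdkn1a, Mdm2 and Ccng1 the difference did not pass.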

How the data were processed

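RNA of GSC-H cells was hybridised to Clariom S Mouse arrays. The deposited values are log2 signals that the authors made with Transcriptome Analysis Console; the scaling and the summarization are not given in the sources used here. Both deposited tables held the same values for 12 arrays. Probe sets were named through the platform annotation, by which 19572 of 22206 had 1 symbol and 2634 none, and 893 of 977 symbols in the 37 gene lists were matched. Arrays were grouped by title, 3 per group.

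The log2 values were used as deposited in limma 3.58.1 under R 4.3.3, with a group-means model over 12 arrays, empirical Bayes (8 residual and 4.68 prior degrees of freedom) and Benjamini-Hochberg adjustment over all probe sets, two-sided, at 0.05. No filter on dim probe sets was applied. The scripts were tested on simulated data.

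Replicate numbers come from the titles, and the labels do not say what a number marks. Deviations from the group mean of same-numbered PBS and doranidazole arrays in normoxia correlated at 0.202, 0.329 and 0.326, and those of different numbers at -0.282 to -0.0185. The numbers were therefore taken to pair the normoxia arrays, and a fit with the number as a block over these 6 arrays (2 residual and 6.54 prior degrees of freedom) was added. In hypoxia the same-number correlations were -0.0202, -0.024 and -0.0466.

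Genes were named by a rule: the 12 that rose and the 12 that fell most, up to 6 per list that passed or the 2 of smallest p, the genes the study names, the 6 that rose and the 6 that fell most in the blocked and not in the unblocked fit, and the 3 that rose and the 3 that fell most of the brightest 10% in PBS. A gene with several probe sets was represented by the brightest. The histone genes and Mcm5, Mcm6, Mcm3, Rfc4, Kif15, Aurkb, Ccna2, Cdk1, Mthfd2, Phgdh, Asns, Slc7a5, Dbp, Bhlhe41, Zmat3, Phlda3, Pidd1, Sulf2, Abcc4, Tfrc, Id1, Id2, Id3, Gsta2, Gstm1, Mgst1, Pgd, Lamp2, Ctsb, Car9, Olig1, Ptprz1, Xdh, Blvrb, Ftl1, Neil3, Brca2, Chek1, Pcna, Myc, Herpud1 and Creg1 were chosen after their values were seen. Members and lists were chosen with earlier results of these data known. Alternatives were other scalings, dim probe sets left out, a trended prior, array weights, 1 probe set per gene, only the normoxia groups, the block, and each array left out. Promoter sequences are from RefSeq, GRCm38.p6.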

Additional observations from a re-analysis of the deposited data

Results flagged for a closer look

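For 51 of the genes named above the response to doranidazole differed between oxygen levels, by the interaction term of the fit over 12 arrays (limma, adjusted over all probe sets, where 13.5% passed). Each value is the log2 response in hypoxia minus that in normoxia, and a positive value is a response that was higher in hypoxia.

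The genes of detoxification, redox, heme and NADPH metabolism had mostly positive differences: Gsta2 7.86, Gsta4 5.38, Blvrb 4.35, Cbr3 4.23, Aldh3a1 3.74, Nqo1 3.28, Txnrd1 2.99, Xdh 2.47, Mgst1 2.37, Gclm 1.81, Taldo1 1.68 and Prdx1 1.28. Aox1 (-1.71) and Gch1 (-1.77) had negative ones. Bach1, a repressor of antioxidant response elements, was at 3.03 and the drug efflux gene Abcb1b at 1.74. The lysosomal genes were positive, with Gpnmb 4.2, Creg1 3.83, Flcn 2.7 and Map1lc3b 1.86, as was Cryab at 2.92. The p53 targets Dgka (-2.89), Dcxr (-2.54), Pidd1 (-2.41) and Sulf2 (-2.3) had negative differences. Dgka rose in normoxia and fell in hypoxia, by 1.11 on the log2 scale (adjusted p = 0.00423), and the other 3 did not pass in hypoxia.

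Of the genes above from the hypoxia, lipid and stem cell lists, those that differed had negative values, with Car9 at -6.41, Id3 -5.13, Fabp7 -4.17, Bnip3l -2.73, Abca1 -2.36, Lss -2.27, Fads1 -1.76, Sox11 -1.72 and Id1 -1.47. Of genes elsewhere, Adamts4 was at -5.46, Cd93 -4.6, Gria3 -4.01, Lif -3.86, Pltp -3.05, Col18a1 -2.72, Adssl1 -2.59, Pde2a -2.13 and Rb1 -1.82. The clock genes were split, with Rorb at -3.8, Dbp -2.53 and Nr1d2 1.54. In the cell cycle and repair lists Chek1 was at 2.7 and Cenpu at 1.72. Gfap was at 0.94, but its arrays read only 3.17 to 3.92 in the 4 groups, a level not shown to be above background. The subunits of complexes I and II were at -1.33 for Ndufb2 and -1.54 for Sdha. Adjusted p ran from 1.23e-05 (Rorb) to 0.0493 (Pidd1).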

How the results depend on the processing

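The count of calls depended on how the spread was estimated. Against 352 probe sets (287 higher, 65 lower), 1386 (877, 509) passed with array weights, 1010 (613, 397) with only the normoxia groups in the fit and 1614 (925, 689) with the replicate block. The share of higher calls was 81.5%, 63.3%, 60.7% and 57.3%. The replicate block gave 1691 (895, 796) after quantile normalization and 1625 (906, 719) with array medians set equal. Cyclic loess gave 102 lower. Quantile normalization (379), equal medians (283), dim probe sets left out (383), a trended prior (338), 1 probe set per gene (336) and a block over all 12 arrays (440) stayed within 1.5 times. With 1 array left out, 38 to 569 passed, 36 to 443 higher and 2 to 200 lower. The replicate block gave 898 (536, 362) without number 1, 1371 (730, 641) without number 2 and 671 (428, 243) without number 3.

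Of 76 named genes that passed, all 76 passed with the replicate block over the normoxia arrays, 70 with a block over all 12 arrays and 75 with only the normoxia groups, and none changed direction in any alternative. Of 77 that did not pass, 63, 13 and 34 passed in these fits. The sign of Sdha turned from -0.02 to 0.05 with array weights, -0.18 to 0.1 with 1 array left out (0.1 and 0.02 without PBS replicate 2 or 3), and 0.11 and 0 in the replicate block without number 2 or 3. Probe sets past the thresholds of the study (853) ranged from 789 to 1097. The difference of response (3003) ranged from 2182 to 4364. Signal over background could not be judged, since the values hold no background measure.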
